A study of Mus musculus with 12 samples.

Results

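A group of 7 transcripts was examined whose counts in mouse liver lay near zero in every mouse of one genotype and were clear in another. They are *Tekt5*, *AI314278*, *Gm10639*, *Gldn*, *Gm11715*, *Gm12669* and *4930404H11Rik*, 7 of the 24411 genes in the deposited table, and none has an established role in hepatocytes. They were picked for exactly these counts, so their levels are given below as a description without a test. Livers came from mice aged 3 months, 3 of each of 3 genotypes. All 9 carried Atg7 flox/flox, which is the whole genotype of the mice called cont. Those called Atg7-KO had Alb-Cre in addition, and those called Atg7-KO;p62T352A had Alb-Cre and the exchange p62 T352A/T352A. Alb-Cre deletes *Atg7* in hepatocytes, so that the other cell types of the liver keep it. The T352A exchange sits in the endogenous p62 gene, *Sqstm1*, and was made by prime editing in an embryonic stem cell line derived from C57BL/6N, whereas the flox and Cre lines are described as being on a C57BL/6 background. Genetic background and the exchange therefore cannot be told apart here. The 3 p62T352A mice with intact *Atg7* have sample labels but were not analysed here.

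Autophagy in hepatocytes degrades p62 together with KEAP1, the adaptor that keeps the transcription factor NRF2 low. Without ATG7, p62 bodies accumulate, KEAP1 is held in them and NRF2 switches on detoxifying genes, among them glutathione S-transferases. The T352A form of p62 does not retain KEAP1. Of the transcripts described here, *Tekt5* encodes a tektin, a filament protein of the sperm tail. *Gldn* encodes gliomedin, a Schwann cell ligand that helps to cluster sodium channels at nodes of Ranvier. *Gm10639* is a predicted coding gene inside the cluster of alpha-class glutathione S-transferases. *AI314278* and *4930404H11Rik* are long intergenic noncoding RNAs, *Gm11715* is annotated as an antisense transcript, and *Gm12669* is a processed pseudogene of the glutaredoxin gene *Glrx3*.

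The members lie on 6 chromosomes of GRCm38. *Tekt5* is at chr16:10357952-10395455 on the minus strand and *AI314278* at chr7:89426306-89432077 on the plus strand. *Gm10639* at chr9:78289928-78305525 and *Gldn* at chr9:54286486-54341777 are both on the plus strand. *Gm11715* is at chr11:107157408-107167125 and *4930404H11Rik* at chr12:71540607-71556133, both on the plus strand. *Gm12669* is at chr4:91805550-91806555 on the minus strand.

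Expected counts of RSEM assign a read that fits several genes in fractions, so sequence that a member shares with another gene bears on its count. Every stretch of 75 bases, the read length, was therefore taken from each member's annotated transcripts and searched in all other transcripts on both strands. *Tekt5*, *AI314278*, *Gldn* and *4930404H11Rik* shared none of their 1732, 2720, 4584 and 1347 stretches, and their counts were whole numbers in all 9 mice. *Gm12669* shared 66.0% of its stretches with *Glrx3*, *Gm11715* shared 58.8% with *Nol11*, and *Gm10639* shared 37.3% with genes that included *Gm3776* (24.6%), *Gsta2* (23.6%) and *Gsta1* (15.4%). These 3 held values that were not whole in 6, 3 and 5 mice, respectively. Over the whole table, 16178 of the 19158 genes with any count (84.4%) were whole in all 9 mice.

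The likeness is shown for *Gm12669* and *Glrx3*, since most reads of the pseudogene would also fit the other gene. The pseudogene aligned with the *Glrx3* transcript over 1014 columns with 99.1% identity, 4 mismatches and 5 gap columns. The 75 bases below, one read long, run from base 224 of the GENCODE transcript of *Gm12669* and from base 288 of that of *Glrx3*, inside its coding sequence, and hold 1 difference, in capitals.
Gm12669: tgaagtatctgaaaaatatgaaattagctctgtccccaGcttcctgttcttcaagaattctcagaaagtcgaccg
Glrx3: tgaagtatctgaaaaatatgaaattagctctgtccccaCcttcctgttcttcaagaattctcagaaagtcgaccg
*Gm10639* aligned with *Gsta2* at 98.2%, with *Gm3776* at 96.8% and with *Gsta1* at 96.6% identity, transcript against transcript. The windows of 75 bases, within the coding sequence of the second gene, with the most differences are shown, with the differences in capitals, because reads from such windows can separate the genes. Against *Gsta2* the window held 4 differences.
Gm10639: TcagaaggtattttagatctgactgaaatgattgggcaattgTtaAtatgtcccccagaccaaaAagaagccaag
Gsta2: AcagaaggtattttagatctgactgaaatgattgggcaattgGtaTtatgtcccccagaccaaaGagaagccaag
Against *Gm3776* it held 7 differences.
Gm10639: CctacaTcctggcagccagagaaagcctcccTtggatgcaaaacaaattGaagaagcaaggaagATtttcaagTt
Gm3776: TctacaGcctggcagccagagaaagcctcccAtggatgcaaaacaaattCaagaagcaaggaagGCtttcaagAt
*Gm11715* does not resemble *Nol11* but overlaps it. The genes lie on opposite strands, and 437 of the 695 exon bases of *Gm11715* are also exon bases of *Nol11*. The strand setting of the counting is not given in the sources used here, so reads of a gene and of its antisense partner cannot be told apart.

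The 9 libraries held 9671073 to 23285134 counts. Cont. mouse 1 was the deepest and its counts differed more from those of the other cont. mice (chi-square per degree of freedom of 196 and 305) than theirs did from each other (52.0). In the mice numbered 1 of all genotypes *Xist* had 7 to 27.74 counts, against at least 8578 in the other 6 mice, and the labels give no sex. Levels are given as normalized CPM, counts scaled to the library size by edgeR's TMM method. As a check of the labels, cont. livers had 48.7 ± 5.94 normalized CPM of *Atg7* (SD, n = 3), Atg7-KO livers 10.6 ± 1.27 and Atg7-KO;p62T352A livers 28.9 ± 1.28. It was lower than in cont. by the test in both (log2 fold changes of -2.20 ± 0.17 and -0.75 ± 0.16, SE), and higher in Atg7-KO;p62T352A than in Atg7-KO by 1.45 ± 0.17 (adjusted p = 0.00016 in edgeR's quasi-likelihood test). The count covers all exons of the gene, also those that the deletion leaves, in both genotypes with Alb-Cre. Why these genotypes differed in *Atg7* was not tested, and this difference stands behind every comparison between them. For *Sqstm1* the levels were 387 ± 103 (cont.), 914 ± 44.2 (Atg7-KO) and 545 ± 71.1 (Atg7-KO;p62T352A).

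*Tekt5*, *AI314278* and *Gm10639* were near zero in cont., high in Atg7-KO and low again in Atg7-KO;p62T352A livers, where only *Gm10639* stayed at 3 counts or fewer in every mouse. *Tekt5* had 2, 1 and 1 counts in the cont. mice, 2358, 2992 and 3665 in the Atg7-KO mice and 1, 5 and 15 in the Atg7-KO;p62T352A mice. The Atg7-KO mice stood far above all 6 others, at 131 ± 22.3 normalized CPM (SD, n = 3) against 0.11 ± 0.010 for cont. and 0.47 ± 0.46 for Atg7-KO;p62T352A. The pooled counts of Atg7-KO exceeded those of cont. 1222-fold, with a 95% counting interval of 477 to 4487, and the mean of Atg7-KO was 281-fold that of Atg7-KO;p62T352A. Such intervals cover counting error only. Without Atg7-KO;p62T352A mouse 3, the highest of its group, the latter value was 622-fold. Against cont., the pooled counts of Atg7-KO;p62T352A were 4.47-fold (1.51 to 17.9) and without mouse 3 they were 1.97-fold, and the mice of these genotypes overlapped. In a bulk sample, fewer cells that make a transcript and less RNA per cell cannot be told apart.

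*AI314278*, a noncoding RNA in the interval between *Fzd4* and *Prss23*, was listed at 0 in all cont. mice. It had 190, 254 and 291 counts in the Atg7-KO mice and 1, 1 and 14 in the Atg7-KO;p62T352A mice. The level was 10.7 ± 1.63 normalized CPM (SD, n = 3) in Atg7-KO livers, at least 40.8-fold above cont. for a floor of 3 counts per library. It was 30.4-fold above the mean of Atg7-KO;p62T352A, and 152-fold without mouse 3 of that genotype. Mouse 3 was thus the highest of its group for both *Tekt5* and *AI314278*.

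*Gm10639* had 0 counts in the cont. mice, 157.9, 245.86 and 265.59 in the Atg7-KO mice and 1.21, 0 and 2.41 in the Atg7-KO;p62T352A mice. The Atg7-KO level of 9.69 ± 1.88 normalized CPM (SD, n = 3) was at least 37.0-fold above cont., and the pooled counts were 142-fold (48.5 to 692) above Atg7-KO;p62T352A. Without mouse 3 of the latter genotype this was 277-fold. The counts of *Gm10639* were small beside those of the genes it shares sequence with. Together with *Gsta1*, *Gsta2* and *Gm3776* it held whole sums in all 9 mice, to within 0.02 counts, and its own part of them was 0.45% to 0.64% in Atg7-KO mice and at most 0.14% in the others. Those sums were 73.8 ± 52.4 normalized CPM for cont., 1741 ± 191 for Atg7-KO and 113 ± 32.03 for Atg7-KO;p62T352A livers, so that Atg7-KO was 23.6-fold above cont.

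**Figure D1:**
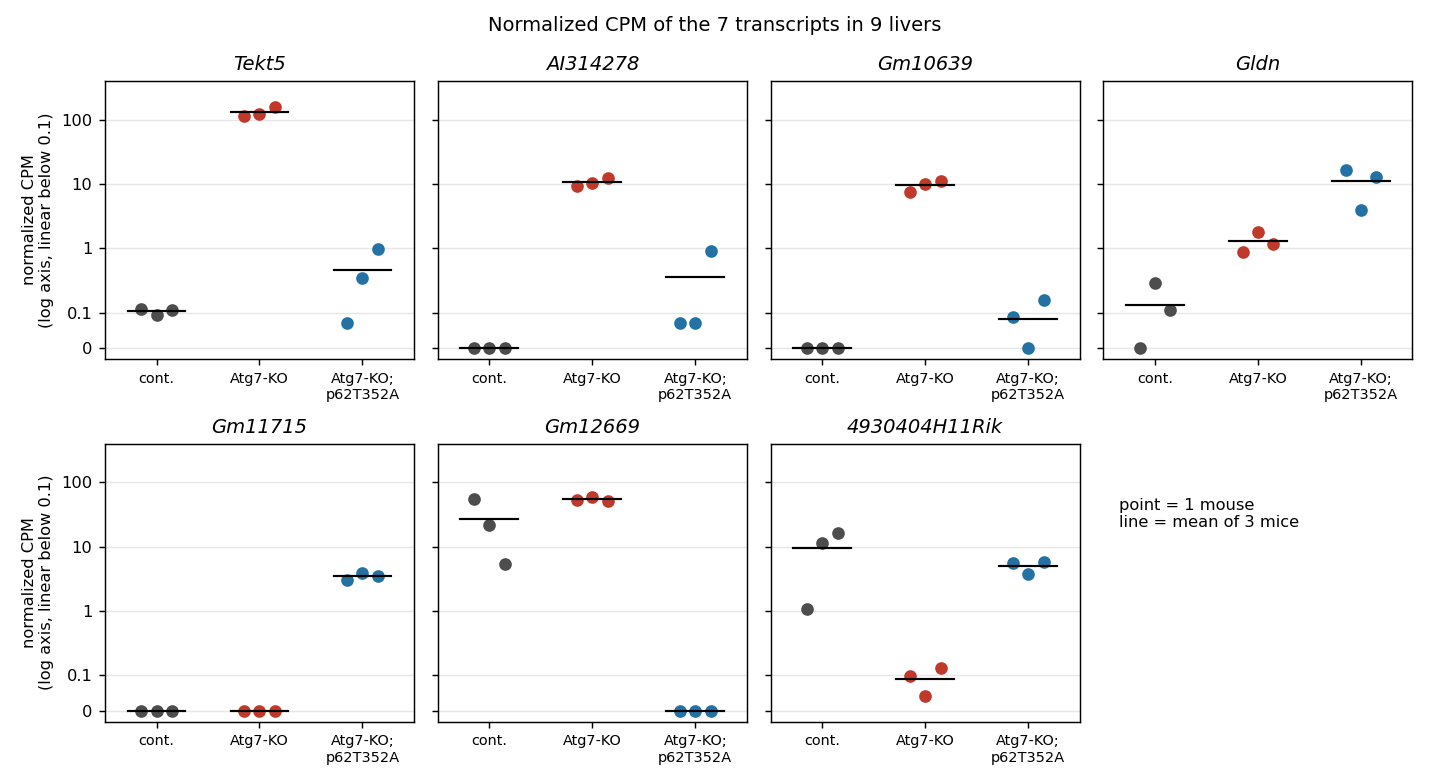
Normalized CPM after TMM scaling (log axis, linear below 0.1) of the 7 transcripts by genotype. Points are single mice and lines the means of 3 mice. *Tekt5* lies at 114 to 156 in the Atg7-KO mice and below 1 in all others, *Gm11715* leaves 0 only in the Atg7-KO;p62T352A mice, and *Gm12669* is at 0 in these alone.

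*Gldn* was lowest in cont. livers, higher in Atg7-KO and highest in Atg7-KO;p62T352A livers. It had 0, 3 and 1 counts in the cont. mice, 18, 44 and 27 in the Atg7-KO mice and 230, 56 and 196 in the Atg7-KO;p62T352A mice. No genotype overlapped with another, although Atg7-KO;p62T352A mouse 2 lay close to the highest Atg7-KO mouse (3.92 against 1.81 normalized CPM). Means were 0.13 ± 0.14, 1.28 ± 0.48 and 11.0 ± 6.43 normalized CPM (SD, n = 3). Pooled counts of Atg7-KO;p62T352A exceeded those of cont. 103-fold (39.8 to 378), a value that was 54.4-fold without cont. mouse 1 and 294-fold without cont. mouse 2, and the mean was 8.65-fold that of Atg7-KO. Pooled counts of Atg7-KO were 12.1-fold (4.55 to 45.3) those of cont., and 6.40-fold or 34.5-fold without the same mice. *Gldnos*, which overlaps *Gldn* on the other strand, was listed at 0 in all 9 mice.

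*4930404H11Rik* was near zero only in Atg7-KO livers. It had 19, 120 and 150 counts in the cont. mice, 2, 1 and 3 in the Atg7-KO mice and 79, 54 and 90 in the Atg7-KO;p62T352A mice. Cont. mouse 1, the deepest library and the only cont. mouse with low *Xist*, was lowest of the 6 other mice. It had 1.09 normalized CPM against 11.3 and 16.5 in the other cont. mice. Atg7-KO;p62T352A mouse 1, also with low *Xist*, had 5.64 against 3.78 and 5.87 in mice 2 and 3 of its genotype. The mean was 9.64 ± 7.84 normalized CPM for cont., 0.089 ± 0.044 for Atg7-KO and 5.10 ± 1.15 for Atg7-KO;p62T352A livers (SD, n = 3), and the mice of cont. and Atg7-KO;p62T352A overlapped. Pooled counts of cont. exceeded those of Atg7-KO 88.8-fold (40.3 to 244), which became 157-fold without cont. mouse 1 and 56.6-fold without cont. mouse 3. Those of Atg7-KO;p62T352A exceeded Atg7-KO 58.4-fold (26.4 to 161).

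*Gm12669* was listed at exactly 0 in all Atg7-KO;p62T352A mice. It had 967.01, 226.65 and 49.79 counts in the cont. mice and 1098.53, 1458.85 and 1210.66 in the Atg7-KO mice. The cont. mice spread from 5.47 to 55.4 normalized CPM, while the Atg7-KO mice lay between 51.7 and 59.9. The bound on the fold against Atg7-KO;p62T352A was at least 266 for Atg7-KO and at least 133 for cont., the latter at least 65.1 without cont. mouse 1. Most of its stretches also fit *Glrx3*. The sums of both genes were whole in every mouse, with 1339, 473 and 338 counts in the cont., 1707, 2055 and 1861 in the Atg7-KO and 499, 855 and 712 in the Atg7-KO;p62T352A mice. *Gm12669* received 14.7% to 72.2% of the sum in the cont. mice, 64.4% to 71.0% in the Atg7-KO mice and 0% in the third genotype, in which *Glrx3* itself was whole.

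The sum of *Gm12669* and *Glrx3* differed far less between the genotypes than the pseudogene did. It was 52.9 ± 21.0 normalized CPM for cont., 82.1 ± 2.55 for Atg7-KO and 47.3 ± 12.2 for Atg7-KO;p62T352A livers (SD, n = 3), a ratio of Atg7-KO;p62T352A to Atg7-KO of 0.58 and to cont. of 0.90. The cont. and Atg7-KO;p62T352A mice overlapped. Taken alone, *Glrx3*, which encodes a cytosolic monothiol glutaredoxin, was called higher in Atg7-KO;p62T352A than in cont. by 0.90 ± 0.23 (SE) on the log2 scale (adjusted p = 0.034 in edgeR's quasi-likelihood test). This call was lost without any one of the Atg7-KO mice, without mouse 2 or 3 of Atg7-KO;p62T352A and without cont. mouse 2, and over the 9 fits that each left out 1 mouse its adjusted p ran from 0.024 to 0.110 (edgeR). The ratio of the sums was -0.16 on the same scale, which is the opposite direction. The sums were not tested, because *Gm12669* was chosen on these counts. Shared reads counted for *Gm12669* are not counted for *Glrx3*, so the *Glrx3* call is not independent of that choice either.

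*Gm11715* was listed at 0 in all cont. and Atg7-KO mice and had 43.02, 55.91 and 53.88 counts in the Atg7-KO;p62T352A mice. Its level there, 3.50 ± 0.42 normalized CPM (SD, n = 3), was at least 26.5-fold above Atg7-KO and at least 13.4-fold above cont. Its counts and those of *Nol11*, a nucleolar protein of ribosome biogenesis, summed to whole numbers in all 9 mice. The sums were 315, 100 and 81 in the cont. mice, 364, 446 and 428 in the Atg7-KO mice and 115, 170 and 152 in the Atg7-KO;p62T352A mice. *Gm11715* received 32.9% to 37.4% of the sum in the last and 0% in all others.

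Here too the ratio between the genotypes was smaller for the sum than for the member. The sum was 12.1 ± 5.13 normalized CPM for cont., 18.1 ± 0.40 for Atg7-KO and 10.01 ± 1.85 for Atg7-KO;p62T352A livers, or 0.55 times Atg7-KO and 0.83 times cont. in the last. *Nol11* alone fell in Atg7-KO;p62T352A against Atg7-KO, with a log2 fold change of -1.47 ± 0.29 (SE; adjusted p = 0.0023, edgeR), whereas the sum gave -0.85. Reads counted for *Gm11715*, which was chosen on its counts, are missing from *Nol11*, so this test is not independent of that choice. In the whole table, 3 genes were at 0 in all Atg7-KO;p62T352A mice and at 20 or more in each of the other 6, namely *Gm12669*, *Akr1b3* and *H2-Q8*, and all 3 held values that were not whole. The reverse pattern was met by *Gm11715* alone. *Akr1b3* and *H2-Q8* were named after their values were seen.

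**Figure D2:**
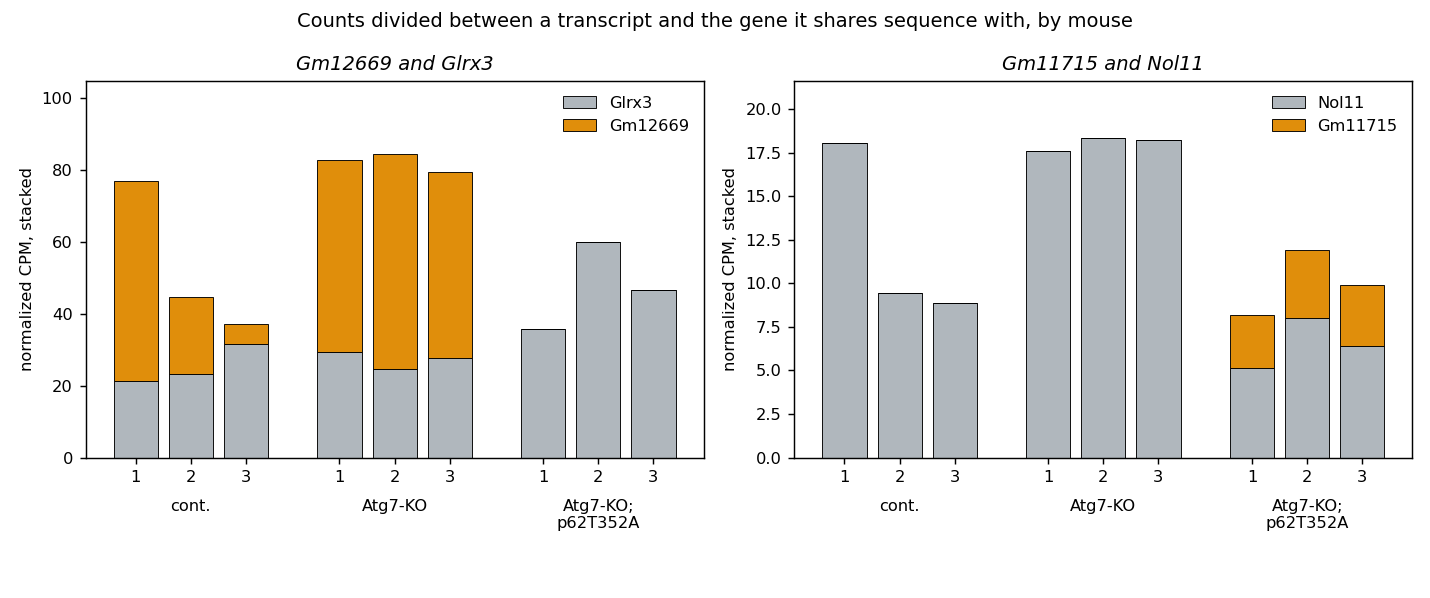
Normalized CPM of *Gm12669* stacked on *Glrx3* (left) and of *Gm11715* stacked on *Nol11* (right), 1 bar per mouse. The sums of the left pair range from 35.6 to 84.4 and those of the right pair from 8.21 to 18.3, while the orange part is absent in the Atg7-KO;p62T352A mice on the left and present only in them on the right.

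The pattern that the members were picked for was counted over the whole table, with at most 3 counts in every mouse of one genotype as near zero and at least 20 in every mouse of another as clear. By this count 145 genes (0.594% of 24411) were near zero in cont. and clear in Atg7-KO, among them *Tekt5*, *AI314278* and *Gm10639*. A group of 93 genes (0.381%) was near zero in Atg7-KO;p62T352A and clear in Atg7-KO, and it held *Gm10639* and *Gm12669*. *Tekt5* and *AI314278* were outside it, with 15 and 14 counts in Atg7-KO;p62T352A mouse 3, and *Tekt5* also with 5 in mouse 2. Genes near zero in Atg7-KO and clear in Atg7-KO;p62T352A numbered 10 (0.041%), with *Gm11715* and *4930404H11Rik* among them. No gene was near zero in Atg7-KO and clear in cont. (0%), since *4930404H11Rik* had 19 counts in cont. mouse 1. A set of 3 genes (0.0123%) was near zero in cont. and clear in Atg7-KO;p62T352A, including *Gldn* and *Gm11715*, and 3 (0.0123%) were near zero in Atg7-KO;p62T352A and clear in cont., including *Gm12669*. Since the members were chosen for it, nothing is read from their place in these counts. Mice of a pair of genotypes that do not overlap were common among the 13922 genes tested, with 55.5% of genes between Atg7-KO and cont., 73.2% between Atg7-KO;p62T352A and Atg7-KO and 26.6% between Atg7-KO;p62T352A and cont.

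Per kilobase of the longest annotated transcript, *Tekt5* had the highest mean level of the members in any genotype, 72.7 CPM per kb in Atg7-KO livers. *Gm12669* followed with 54.4 in Atg7-KO and 27.2 in cont., and its counts stand beside those of *Glrx3* as described above. *Gm10639* reached 9.76 in Atg7-KO, *4930404H11Rik* 7.58 in cont., *Gm11715* 5.04 in Atg7-KO;p62T352A, *AI314278* 4.50 in Atg7-KO and *Gldn* 2.37 CPM per kb in Atg7-KO;p62T352A livers. With an SD of 7.84 on a mean of 9.64 normalized CPM for *4930404H11Rik* (cont.) and of 6.43 on 11.0 for *Gldn* (Atg7-KO;p62T352A), their places next to each neighbour in this order are not beyond the spread.

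The members' surroundings were not used to pick them. The 3 nearest genes of the table on each side by start position, 42 in all, were therefore tested in the fit over 13922 genes, in which a call needed a fold change over 1.5 and an FDR (Benjamini-Hochberg) below 0.05. Of the 30 neighbours that passed the low-count filter, 7 were higher and 5 lower in Atg7-KO than in cont. This share of 40.0% stood beside 43.7% of all genes tested, 21.6% called higher and 22.1% called lower. Between Atg7-KO;p62T352A and Atg7-KO, 6 were higher and 11 lower (56.7%), against 51% of all genes (24.7% higher and 26.2% lower). Between Atg7-KO;p62T352A and cont. 1 was higher and 2 were lower (10.0%), against 11.6% of all genes (6.25% higher and 5.34% lower). The first and the second comparison share the Atg7-KO mice. Leaving out the 4 neighbours that share sequence with a member, 9 of 26 (34.6%), 13 of 26 (50%) and 3 of 26 (11.5%) were called, with median log2 fold changes of 0.04, -0.08 and -0.10 beside -0.03, 0.00 and 0.00 over all genes.

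Around *Tekt5*, its nearest neighbours *Gm1600* (26.7 kb away) and *Nubp1* (16.4 kb), a cytosolic iron-sulfur cluster assembly factor, were not called in any comparison. *Emp2*, a tetraspan membrane protein, rose in Atg7-KO by 2.60 ± 0.34 (SE, log2; adjusted p = 0.00033, edgeR), from 10.2 ± 2.41 to 61.3 ± 3.89 normalized CPM (SD, n = 3 mice per genotype). *Ciita*, the master regulator of MHC class II genes, rose by 2.14 ± 0.51 (adjusted p = 0.0075, edgeR). Both fell in Atg7-KO;p62T352A against Atg7-KO, with log2 fold changes of -1.21 ± 0.32 for *Emp2* and -2.64 ± 0.51 for *Ciita* (adjusted p = 0.010 and 0.0023, edgeR). *Emp2* stayed above cont. there (1.39 ± 0.33, adjusted p = 0.027, edgeR), a call that was lost without any one of the Atg7-KO mice, without Atg7-KO;p62T352A mouse 3 and without cont. mouse 2 (adjusted p up to 0.077, edgeR).

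Beside *AI314278*, *Prss23*, a secreted serine protease 75.7 kb away, rose in Atg7-KO (log2 fold change 1.69 ± 0.22, SE) and fell in Atg7-KO;p62T352A against Atg7-KO (-2.40 ± 0.22, adjusted p = 0.00031 and 7.2e-05, edgeR). *Fzd4*, a Wnt receptor 16.2 kb on the other side, did not pass the test in Atg7-KO (0.80 ± 0.31, adjusted p = 0.057, edgeR). In Atg7-KO;p62T352A it was lower than in Atg7-KO (-2.47 ± 0.33) and than in cont. (-1.67 ± 0.33, adjusted p = 0.00034 and 0.0155, edgeR). The latter call was lost without Atg7-KO;p62T352A mouse 1 or 3 (adjusted p up to 0.067, edgeR).

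All 4 tested neighbours of *Gm10639* were glutathione S-transferase genes, and all 4 rose in Atg7-KO and fell in Atg7-KO;p62T352A. *Gm3776* changed by 7.11 ± 0.59 and -5.66 ± 0.55, *Gsta1* by 6.88 ± 0.86 and -4.54 ± 0.77, *Gsta2* by 2.49 ± 0.44 and -2.36 ± 0.44 (log2, SE), with adjusted p of at most 0.0019 (edgeR). These 3 share stretches with *Gm10639*. *Gsta4*, which conjugates lipid peroxidation products, shares none with it, and changed by 1.99 ± 0.29 and -2.08 ± 0.29 (adjusted p = 0.00064 and 0.00042, edgeR). *Omt2a*, the nearest gene at 6.45 kb, did not pass the low-count filter, with at most 6.11 counts outside cont. mouse 3.

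Around *Gldn*, *Dmxl2* at 23.4 kb was not called. *Sh2d7* and *Cib2*, a calcium-binding protein, lay at 192 and 203 kb and went down in Atg7-KO (-3.39 ± 0.71 and -1.71 ± 0.29) and up in Atg7-KO;p62T352A against Atg7-KO (4.31 ± 0.67 and 1.61 ± 0.29, log2 with SE), with adjusted p from 0.00069 to 0.0042 (edgeR). Neither was called between Atg7-KO;p62T352A and cont., with 0.92 ± 0.54 for *Sh2d7* and -0.10 ± 0.28 for *Cib2*. *Cyp19a1*, aromatase, was listed at 0 in all 9 mice. *Gm12669* had only distant neighbours. The next by start position, *Mir6402* and *Izumo3*, were listed at 0 in all 6 mice with Alb-Cre. *Elavl2*, whose end lies 405 kb from the pseudogene, had at most 1 count in any mouse, and the tested *Tusc1* and *Caap1* lay 1528 and 2694 kb away and were not called.

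Near *Gm11715*, *Bptf*, a subunit of a chromatin remodeler 25.3 kb away, rose in Atg7-KO;p62T352A against Atg7-KO by 1.28 ± 0.27, while *Kpna2*, a nuclear import receptor, fell (-1.70 ± 0.41, log2 with SE; adjusted p = 0.0036 and 0.0068, edgeR). Near *4930404H11Rik*, the adjacent *Dact1* and *Daam1*, both of Wnt signaling, were not called. *Timm9*, a chaperone of mitochondrial protein import 404 kb away, was the neighbour that went down in Atg7-KO (-1.13 ± 0.16) and up in Atg7-KO;p62T352A (1.64 ± 0.16; adjusted p = 0.00049 and 8.2e-05, edgeR). *Gpr135*, an orphan receptor, fell in Atg7-KO (-3.20 ± 0.52, adjusted p = 0.0011, edgeR) and was also lower than cont. in Atg7-KO;p62T352A (-1.98 ± 0.49, adjusted p = 0.0325, edgeR). The latter call was lost in 8 of the 9 fits that each left out 1 mouse, all but that without cont. mouse 1 (adjusted p from 0.0050 to 0.093, edgeR).

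**Figure D3:**
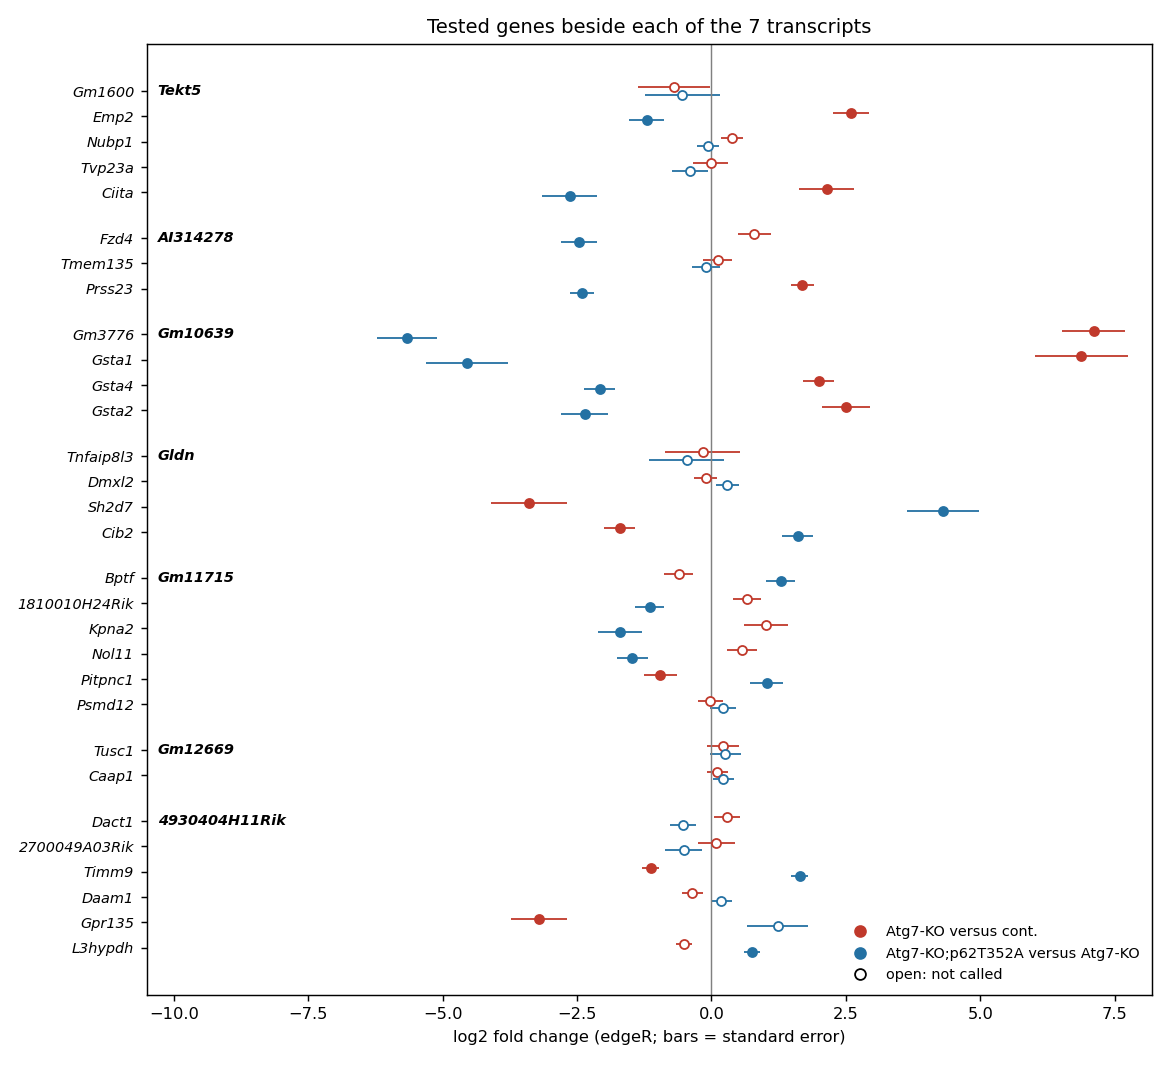
Log2 fold changes of the 30 tested neighbours, grouped by member (bold), for Atg7-KO versus cont. (red) and Atg7-KO;p62T352A versus Atg7-KO (blue), which share the Atg7-KO mice. Bars are standard errors and open points were not called. The 4 tested neighbours of *Gm10639* lie right of zero in red and left of it in blue, and both neighbours of *Gm12669* are open.

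The sequence before the start of the gene was compared for the 4 members with an entry in the RefSeq promoter table, *Tekt5*, *Gm10639*, *Gldn* and *4930404H11Rik*. The 250 bases upstream were searched on both strands for TGACNNNGC, the core that NRF2 binds, for TGANTCA, the AP-1 motif, and for TATAAA, which 10.2%, 6.75% and 12.4% of 32851 upstream windows of this length hold. *Gldn* held 1 match, to TGANTCA, 72 to 66 bases before the start, and the other 3 held none of these letters. The windows of *Tekt5* and *Gm10639*, which were high in the same genotype as the glutathione S-transferases, and of *Gldn* are shown 5′ to 3′ on the strand of the gene, with the match in capitals. They lie at chr16:10395456-10395705, chr9:78289678-78289927 and chr9:54286236-54286485 (GRCm38.p6).
Tekt5: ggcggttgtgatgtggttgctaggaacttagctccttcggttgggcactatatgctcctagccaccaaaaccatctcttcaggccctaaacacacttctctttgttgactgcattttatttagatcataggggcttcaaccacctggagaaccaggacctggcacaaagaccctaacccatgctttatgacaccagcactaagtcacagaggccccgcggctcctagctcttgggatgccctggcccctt
Gm10639: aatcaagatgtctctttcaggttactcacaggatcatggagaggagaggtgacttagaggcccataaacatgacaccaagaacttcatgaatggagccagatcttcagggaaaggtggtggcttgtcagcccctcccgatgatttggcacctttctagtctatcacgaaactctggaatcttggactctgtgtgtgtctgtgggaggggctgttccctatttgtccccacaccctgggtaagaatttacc
Gldn: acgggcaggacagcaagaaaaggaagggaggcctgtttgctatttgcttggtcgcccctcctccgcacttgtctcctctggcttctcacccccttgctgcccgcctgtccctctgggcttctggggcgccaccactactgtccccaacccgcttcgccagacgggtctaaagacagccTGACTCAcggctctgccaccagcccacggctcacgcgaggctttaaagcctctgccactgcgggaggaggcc
No match says only that the letters are not in this window.

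Genes that share a function with a member were taken from lists. Their counts stand beside the shares of all genes tested that were called higher and lower, which were 21.6% and 22.1% for Atg7-KO versus cont., 24.7% and 26.2% for Atg7-KO;p62T352A versus Atg7-KO, and 6.25% and 5.34% for Atg7-KO;p62T352A versus cont. Sperm tail genes other than *Tekt5* showed no common direction. Of 38 listed genes of sperm tails and tektins in the table, 11 passed the low-count filter, of which 3 were higher and 3 lower in Atg7-KO than in cont., with a median log2 fold change of -0.71. *Tekt1* was listed at 0 in every mouse, *Tekt3* and *Tekt4* had at most 2 counts, and *Tekt2* fell in Atg7-KO (-2.59 ± 0.91, adjusted p = 0.042, edgeR). The *Tekt2* call was lost in 8 of the 9 fits that each left out 1 mouse, all but that without cont. mouse 1 (adjusted p from 0.00027 to 0.195, edgeR). The axonemal dynein *Dnah1* rose from 0.037 ± 0.063 to 8.16 ± 1.90 normalized CPM (log2 fold change 7.87 ± 0.85, adjusted p = 0.00013, edgeR) and stayed above cont. in Atg7-KO;p62T352A at 2.18 ± 1.28.

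Markers of male germ cells were mostly below the low-count filter. Of 25, 3 passed the filter, and 2 of them, *Sycp3* and *Hspa1l*, fell in Atg7-KO (-2.31 ± 0.55 and -1.83 ± 0.55, adjusted p = 0.0078 and 0.022, edgeR). That of *Hspa1l* was lost without Atg7-KO mouse 2 or 3 and without cont. mouse 2 (adjusted p up to 0.080, edgeR). The summed level of all 25 was 3.35 to 11.9 normalized CPM for cont., 2.29 to 3.45 for Atg7-KO and 4.82 to 11.9 for Atg7-KO;p62T352A mice, against 114 to 156 for *Tekt5* alone in Atg7-KO. The protamines *Prm1* and *Prm2* had at most 2 counts, and *Tnp1* and *Acrv1* were at 0 in all 9 mice.

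The partners of gliomedin at the node were mostly below the low-count filter. Of the 15 that the table holds, 6 were tested, and in Atg7-KO;p62T352A against cont., where *Gldn* was highest, 1 was higher and none lower, with a median log2 fold change of 0.48. The direct binding partners of gliomedin, *Nfasc* and *Nrcam*, had 4 to 13 and at most 2 counts. *Nrg1*, a growth factor for Schwann cells, and *Scn8a*, the nodal sodium channel, rose in Atg7-KO (5.25 ± 0.67 and 4.31 ± 0.40, adjusted p = 0.00030 and 6.4e-05, edgeR) and fell in Atg7-KO;p62T352A. *Scn8a* was the one called above cont. there, at 1.56 ± 0.20 against 0.47 ± 0.33 normalized CPM (log2 fold change 1.78 ± 0.43, adjusted p = 0.028, edgeR). This call was lost in 7 of the 9 fits that each left out 1 mouse, all but those without cont. mouse 1 or 2 (adjusted p from 0.017 to 0.087, edgeR).

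Of 16 Schwann cell markers 7 were tested, of which 3 rose and 2 fell in Atg7-KO and, against Atg7-KO, 1 rose and 4 fell in Atg7-KO;p62T352A. Among them *Mbp*, which encodes myelin basic protein, rose in Atg7-KO (3.14 ± 0.37, adjusted p = 0.00022, edgeR). The summed level was 76.1 to 140 normalized CPM for cont., 66.1 to 69.8 for Atg7-KO and 30.5 to 33.6 for Atg7-KO;p62T352A mice. Much of it was 1 gene, *Erbb3*, a receptor for neuregulins, whose share of the sum was 62.7% to 80.3% for cont. mice, 46.4% to 53.2% for Atg7-KO mice and 27.0% to 53.6% for Atg7-KO;p62T352A mice. The other 15 markers summed to 15.01 to 52.1, 32.6 to 35.5 and 15.6 to 24.2 normalized CPM, so that without *Erbb3* the mean was higher in Atg7-KO than in cont. (34.3 ± 1.47 against 28.5 ± 20.5, SD). The highest cont. value was that of mouse 3, in which *Egr2* had 273 counts against 2 and 4 in the other cont. mice. *Sox10*, the defining factor of these cells, had at most 2 counts in any mouse. Of the 9 tested genes that share the olfactomedin domain with gliomedin, 5 rose and 1 fell in Atg7-KO, against 21.6% and 22.1% of all genes tested, led by *Olfml2b* (3.06 ± 0.38) and *Olfml3* (2.74 ± 0.32; adjusted p = 0.00028 and 0.00020, edgeR), and against cont. *Olfml3* alone was called in Atg7-KO;p62T352A (1.28, adjusted p = 0.031, edgeR). The last call was lost without any one of the Atg7-KO mice, without mouse 1 or 3 of Atg7-KO;p62T352A, without cont. mouse 2 and without the mice numbered 1 of all genotypes, with adjusted p from 0.012 to 0.110 over single mice left out (edgeR).

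Among lists for the other members, 24 of 28 NRF2 targets rose and none fell in Atg7-KO, with a median log2 fold change of 2.07 against -0.03 over all genes, and 26 fell and none rose in Atg7-KO;p62T352A against Atg7-KO. The largest were *Slc7a11*, the cystine transporter, at 9.19 ± 0.59, and *Cbr3*, a carbonyl reductase, at 8.15 ± 0.38 (adjusted p = 1.4e-05 and 5e-06, edgeR). *Slc7a11* went from 0.38 ± 0.22 to 247 ± 83.0 normalized CPM. Of 4 alpha-class glutathione S-transferases, *Gsta1*, *Gsta2* and *Gsta4* rose and *Gsta3* was not called (-0.57). Of 4 glutaredoxins, *Glrx* rose in Atg7-KO (0.63 ± 0.18, adjusted p = 0.018, edgeR), a call that was lost without any one of the Atg7-KO mice and without cont. mouse 2 or 3 (adjusted p up to 0.111, edgeR). *Glrx3* was the one called in Atg7-KO;p62T352A, where *Gm12669* was listed at 0, and its counts depend on the division of reads described above.

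Markers of 3 cell types were highest in Atg7-KO, the genotype in which *Tekt5*, *AI314278* and *Gm10639* were high, and hepatocyte markers were lowest there, as was *4930404H11Rik*. The part of these cell types in the members' levels was not tested. Of 11 tested cholangiocyte markers 9 rose in Atg7-KO, led by *Cldn4* (6.10 ± 0.58) and *Cftr* (6.08 ± 0.71), as did 10 of 12 markers of stellate cells and fibroblasts, led by *Col1a1* (4.20 ± 0.43) and *Col3a1* (3.85 ± 0.35), and 9 of 12 macrophage markers, led by *Gpnmb* (7.33 ± 0.60) and *Trem2* (4.77 ± 0.36). The macrophage marker *Timd4*, which marks resident Kupffer cells, fell instead (-1.31 ± 0.28, adjusted p = 0.0045, edgeR). Of 12 hepatocyte markers 10 fell, led by *Ass1* (-3.33 ± 0.41) and *Cyp2e1* (-3.33 ± 0.31). The adjusted p of the 8 genes that led these lists was at most 0.000254 (edgeR). The summed cholangiocyte markers lay at 69.5 to 80.3 normalized CPM for cont., 927 to 1095 for Atg7-KO and 215 to 311 for Atg7-KO;p62T352A mice. Much of these sums was 1 gene, *Spp1*, with mean levels of 33.8 (cont.), 871 (Atg7-KO) and 172 (Atg7-KO;p62T352A) normalized CPM. Summed markers of stellate cells lay at 277 to 344 for cont., 1066 to 1266 for Atg7-KO and 412 to 702 for Atg7-KO;p62T352A mice. Those of macrophages lay at 351 to 469, 1223 to 1334 and 262 to 541 in the same order. All 3 sums were thus lower in Atg7-KO;p62T352A, the genotype with most *Gldn* and *Gm11715*, than in Atg7-KO. Against cont., the cholangiocyte and stellate cell sums were higher there, and the macrophage sums overlapped. In Atg7-KO;p62T352A mouse 3 the summed cholangiocyte and stellate cell markers were the highest of its group (702 against 412 and 467 for the latter). Its macrophage markers (410) lay between those of the other mice (262 and 541). This is 1 library, and nothing is read from it about the members.

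**Figure D4:**
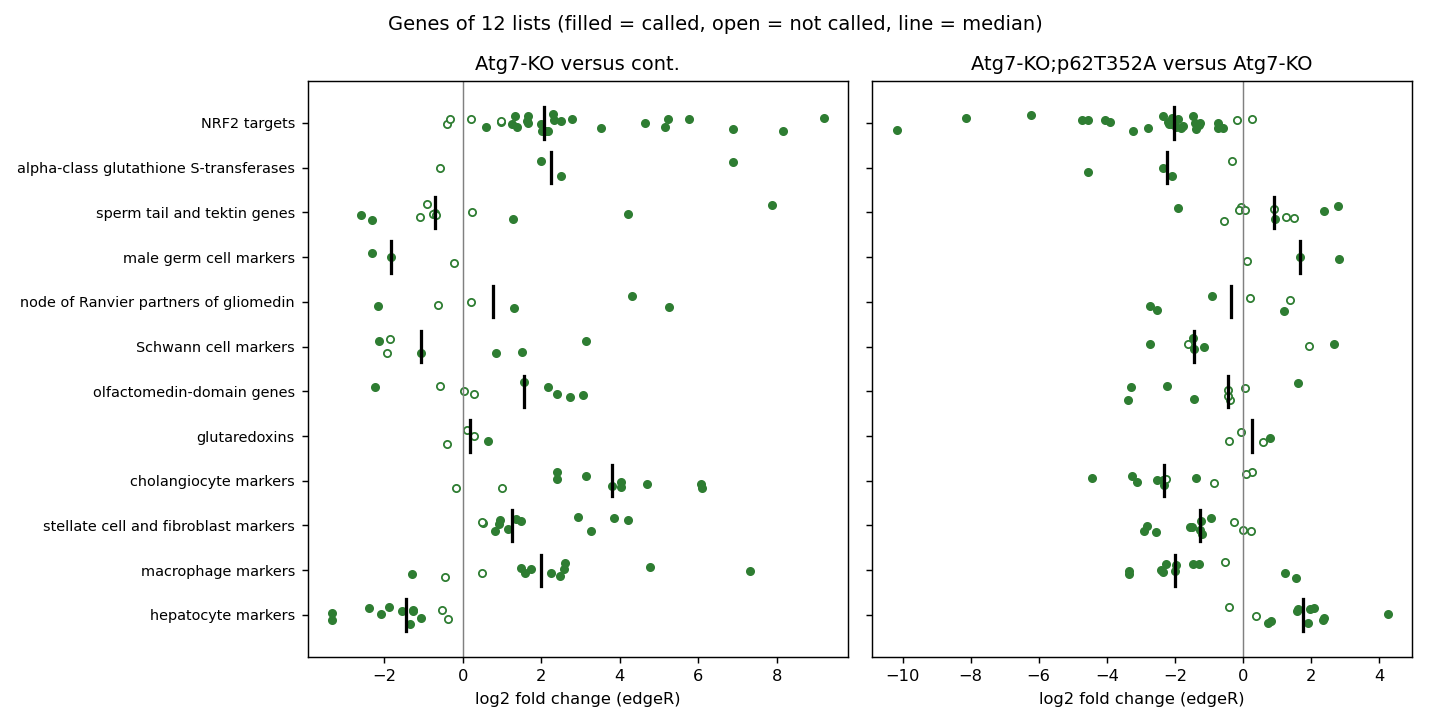
Log2 fold changes of the tested genes of 12 lists for Atg7-KO versus cont. (left) and Atg7-KO;p62T352A versus Atg7-KO (right), which share the Atg7-KO mice. Each point is a gene, filled where called, and black lines are medians. The NRF2 targets center on 2.07 and -2.03, while the 11 sperm tail genes spread to both sides of zero.

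The genes whose levels followed each member most closely over the 9 mice were sought by Pearson's r of log2 CPM. All points come from the same 9 libraries and the genotypes set most of the spread, so r is a description. For *Tekt5* they were *Guca2a*, which encodes guanylin, *Gipc2* and *Tes* (r of 0.999, 0.997 and 0.997). For *AI314278* they were the matrix protein gene *Thbs2*, *Rhob* and *Ly86* (0.995 to 0.993), and for *Gm10639* they were *Myof*, *Tnip1* and *Plek* (0.997 to 0.996). *Guca2a* was itself at 0 in all cont. mice, with 1.96 normalized CPM in Atg7-KO and 0.067 in Atg7-KO;p62T352A livers. The 3 members *Tekt5*, *AI314278* and *Gm10639* correlated with each other at 0.976 to 0.990. They were picked for a like pattern in these counts, so this was largely fixed in advance.

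The closest genes were less close for *Gldn*, namely *Frrs1*, *Lmo4* and *Ciapin1* (0.966 to 0.960). For *4930404H11Rik* they were *Inca1*, *Nrbp2* and *Smarcd2* (0.997 to 0.995), of which *Nrbp2* went from 133 normalized CPM in cont. to 13.5 in Atg7-KO and 116 in Atg7-KO;p62T352A livers. *Gm12669* was followed by *8030462N17Rik*, the endoplasmic reticulum stress sensor *Ern1* and *Sntb1* (0.995 to 0.993), and *Gm11715* by *Pdcd5*, *Fdx1l* and *Snrnp27* (0.989 to 0.988). Mean levels of *Ern1* were 25.5 normalized CPM in Atg7-KO and 1.86 in Atg7-KO;p62T352A livers, and those of *Pdcd5* were 31.6 and 80.9.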

How the data were processed

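The authors sequenced poly(A) RNA of liver, with single-end reads of 75 bp. The deposited values are RSEM expected counts per gene, made by the authors with Trim Galore, STAR and RSEM on mm10, per the labels and the methods. Versions, annotation and strand setting are not given in the sources used here. The library kit does not mark strand. RNA extraction is given as TRIzol in the methods and as an RNeasy column in the labels. Every column had a sample, and 0 columns were left aside.

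The members and all lists were chosen with earlier results of these data known. Expected counts were rounded to whole numbers for fits. Genes were kept by filterByExpr, libraries were scaled by TMM, and edgeR's quasi-likelihood model was fitted once over all 3 genotypes with edgeR 4.0.16 in R 4.3.3. A gene was called at FDR < 0.05 and a fold change over 1.5. Members got no test. Folds against mice all at 0 used a floor of 3 counts per library. With at most 3 counts in each mouse of the lower group, pooled counts were compared with an exact (Clopper-Pearson) interval, and otherwise means were. For Pearson's r, log2 CPM had a prior count of 2. Figures and tables were made in Python 3.11.15, numpy 2.4.6, Biopython 1.88 and matplotlib 3.10.9.

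Named genes were the members, the nearest neighbours and at most 3 called neighbours each, the 3 most alike genes, the gene sharing most stretches, the 2 largest called changes of each list, and *Atg7* and *Sqstm1*. Other listed genes, markers at or near 0 and further neighbours were named after their values were seen. Some listed genes that the rule names are not reported here. Positions are those of RefSeq on GRCm38.p6, found for 23194 of 24411 symbols, with GENCODE vM21 for 437 more. Transcripts are of GENCODE vM21 and upstream sequences of RefSeq.  The labels do not say whether mice were littermates. The fit was tested on simulated data. Alternatives were DESeq2 1.42.0, its size factors in edgeR, other count filters, the mouse number as a replicate block, each mouse left out, and the mice numbered 1 left out.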

Additional observations from a re-analysis of the deposited data

How the results depend on the processing

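Between Atg7-KO;p62T352A and cont., 1613 genes were called, 2975 without the mice numbered 1 and 435 to 3245 with single mice left out, the highest value without cont. mouse 1. Of the neighbours, 3 were called there, 7 with DESeq2, 6 without the mice numbered 1 and 0 to 5 with single mice left out. Of all listed genes 20 were called, and 9 to 32 with single mice left out. In the other comparisons the counts over all genes, neighbours and listed genes stayed within 1.5 times of 6080, 12 and 87 (Atg7-KO versus cont.) and of 7095, 17 and 84 (Atg7-KO;p62T352A versus Atg7-KO). Ranges with single mice left out were 4587 to 7960 and 5652 to 8142 genes and 11 to 18 and 16 to 18 neighbours. Of the listed genes and neighbours called, 80 of 96 (Atg7-KO versus cont.), 84 of 98 (Atg7-KO;p62T352A versus Atg7-KO) and 8 of 23 (Atg7-KO;p62T352A versus cont.) were called in the same direction in every fit that left out 1 mouse. The causes were not tested.

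The mouse number as a replicate block gave 5753, 6994 and 988 called genes for Atg7-KO versus cont., Atg7-KO;p62T352A versus Atg7-KO and Atg7-KO;p62T352A versus cont., and 12, 17 and 3 neighbours, as without the block. Same-numbered mice deviated together with r from -0.20 to 0.32, over 0.1 in 6 of 9 pairs, and 6 of 9 mice correlated best with their own number, a hint from the data that the numbers share something. The mice numbered 1 also shared low *Xist*. Pairing would have needed r over 0.1 in all 9 pairs or a label that gives it, so the block was kept as an alternative. With it, the calls of *Glrx3*, *Scn8a* and *Gpr135* between Atg7-KO;p62T352A and cont. (adjusted p = 0.059, 0.059 and 0.073, edgeR) and of *Tekt2* between Atg7-KO and cont. (0.065) were lost.

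No fold of a member turned around under DESeq2's size factors or with any mouse left out. Since the members were picked for near zero against clear counts, this was largely fixed in advance and does not show how firm the folds are. Their sizes did change. That of *Tekt5* between Atg7-KO and Atg7-KO;p62T352A ran from 197 to 622 with single mice left out. With Spearman's rho in place of Pearson's r, ties were frequent and 0 of the 3 most alike genes kept a place among the 3 highest for any member. Genes near zero in cont. and clear in Atg7-KO numbered 278 for a minimum of 10 counts and 54 for 50. Scaled to the smallest library they numbered 121. Depth limits the members at 0 to a floor of 3 counts.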
